A study of Mus musculus with 8 samples.

Results

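The 8 genes described here are serpins, members of the serine protease inhibitor family, taken by gene symbol from a table of 25834 genes: Serpinh1, Serpind1, Serpini1, Serpine2, Serpinf1, Serpinb1a, Serpinb6a and Serpinb9. Serpinh1 and Serpind1 were picked because their counts were lower in SAP97-cKO hippocampus, and the other 6 were placed beside them as serpins of the brain. C1 inhibitor (Serping1) was not included. RNA-seq counts were available for hippocampal tissue of 8 male mice, 4 control and 4 SAP97-cKO, with 1 library for each mouse. SAP97-cKO mice (Nestin-cre+/-; SAP97fl/fl) lack SAP97, the product of the gene Dlg1, in cells that descend from Nestin-expressing neural progenitors, where Cre recombinase excises the floxed allele. Controls were littermates that carried Nestin-cre alone, SAP97fl/fl alone or neither, and the sources used here state neither which of these each control library came from nor the age of the sequenced mice. Libraries held 37388177 to 37426572 counts, and values below are counts scaled by edgeR's TMM factors unless another unit is named. Dlg1 itself, counted over all its exons, was at 4338 ± 336 in controls against 2393 ± 470 in SAP97-cKO hippocampi (SD, n = 4 each).

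Inhibitory serpins act as bait. A protease cuts an exposed loop of the serpin, the serpin snaps into a more stable shape, and the protease is left bound to it and disabled. Some serpins have lost this activity and serve as chaperones, hormone carriers or growth factors. In the brain, secreted serpins restrain the plasminogen activators and thrombin around synapses and vessels, whereas clade B serpins stay inside the cell and inhibit proteases of lysosomes and of cytotoxic or inflammatory granules.

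The sequences of Serpinh1 and Serpind1 are shown because these are the genes for which the set was assembled. Serpinh1 (Hsp47) resides in the endoplasmic reticulum (ER), where it binds folding procollagen. The last 30 bases of its coding sequence in GENCODE M21 are given with the codons of the ER retention signal and the stop codon in capitals.
Serpinh1 coding end: aagggagacaagatgCGAGATGAGTTGTAG
Promoters, from 250 bases before the RefSeq start to 50 bases after it, follow 5′ to 3′ on the strand of the gene (GRCm38.p6; Serpinh1 chr7:99353190-99353489, minus strand; Serpind1 chr16:17331121-17331420, plus strand). Capitals mark matches to any of 6 motifs searched on both strands.
Serpinh1 promoter: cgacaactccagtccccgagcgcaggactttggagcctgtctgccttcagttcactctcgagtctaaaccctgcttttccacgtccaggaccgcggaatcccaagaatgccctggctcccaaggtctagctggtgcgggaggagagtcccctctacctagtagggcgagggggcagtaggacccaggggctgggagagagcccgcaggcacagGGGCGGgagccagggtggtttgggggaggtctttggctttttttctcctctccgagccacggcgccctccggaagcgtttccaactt
Serpind1 promoter: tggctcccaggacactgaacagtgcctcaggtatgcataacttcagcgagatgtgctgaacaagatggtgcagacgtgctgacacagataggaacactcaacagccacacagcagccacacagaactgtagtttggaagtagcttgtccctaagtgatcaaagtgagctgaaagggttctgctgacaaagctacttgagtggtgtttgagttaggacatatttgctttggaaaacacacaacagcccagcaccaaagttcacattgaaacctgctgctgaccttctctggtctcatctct

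The motifs were the GC box (GGGCGG), the TATA box (TATAAA), the CCAAT box (CCAAT), a pair of heat shock units in either orientation (GAANNTTC and TTCNNGAA, which can overlap each other) and the ER stress element, whose letters begin with a CCAAT box. The Serpinh1 window held a GC box at position -37 from the start and no match to the other 5 motifs. A GC box was in 35.7% of the 32851 RefSeq promoters of this length. The Serpind1 window held none of the 6. Over all members, 7 genes matched 8 promoter windows, and Serpinb1a is named only. A GC box was in the windows of 4 genes (Serpinb6a, Serpinb9, Serpine2 and Serpinh1) and a CCAAT box in those of 3 (Serpinb6a, Serpinf1 and Serpini1), against 37.4% of all promoters for the CCAAT box. The heat shock pair GAANNTTC was in the Serpini1 window (7.86% of all promoters) and TTCNNGAA was in a Serpinb6a window (8.52%). The TATA box (13.6% of all promoters) and the ER stress element (0.119%) were in no member window.

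Serpinh1 (ENSMUSG00000070436; chromosome 7 of GRCm38, 99345376 to 99353239, minus strand) encodes the collagen chaperone that shuttles procollagen out of the ER. Its normalized counts were 1024, 1070, 964 and 887 in control replicates 1 to 4 and 693, 767, 613 and 525 in SAP97-cKO replicates 1 to 4. The lowest control library lay above the highest SAP97-cKO library. The SAP97-cKO mean was 65.9% of the control mean, and the fitted log2 fold change was -0.60 (standard error 0.12). In bulk tissue, fewer cells of a type and less RNA per cell cannot be told apart. Because this difference chose the gene, it is given as a description without a test.

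Serpind1 (ENSMUSG00000022766; chromosome 16, 17331371 to 17343575, plus strand) encodes heparin cofactor II, a plasma-type serpin that inhibits thrombin when bound to dermatan sulfate or heparin. Control libraries held 201, 201, 119 and 215 normalized counts, and SAP97-cKO libraries held 84.5, 104, 50.7 and 38.4. The groups did not overlap, although control replicate 3 was close to SAP97-cKO replicate 2. The SAP97-cKO mean was 37.6% of the control mean (log2 fold change -1.41, standard error 0.30), again without a test. When single libraries were omitted, its log2 fold change ran from -1.67 to -1.20, and that of Serpinh1 from -0.69 to -0.51. Serpind1 lies on the same chromosome as Dlg1, with 14319868 bases between them. Whether that position has a part in its lower count was not tested.

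Markers of other cell types in the dissected tissue were summed in each library, in CPM (counts scaled to library size). All 14 choroid plexus markers and all 20 meningeal fibroblast markers had a lower mean in SAP97-cKO libraries, with none at 0 in any library. The same held for all 8 oligodendrocyte and all 8 endothelial markers, and for 7 of 8 pericyte and smooth muscle markers. A lower mean was seen in 3 of 8 microglia, 2 of 8 astrocyte, 2 of 8 neuron and 1 of 6 hippocampal neuron markers. Over all genes tested, 52.8% had a log2 fold change below 0. The fibroblast markers Col1a2, Col3a1, Ogn, Omd, Aldh1a2, Slc22a6, Slc6a13 and Mgp were among the genes that the authors reported as differing in these libraries. The fibroblast list is thus not independent of this contrast. The choroid plexus sum ran from 460 to 10158 in controls and from 258 to 3369 in SAP97-cKO libraries, and the meningeal fibroblast sum from 409 to 787 and from 226 to 406. The fibroblast sums of the groups thus did not overlap, though 409 and 406 were close. By library, in the order control replicates 1 to 4, the choroid plexus sum was 1874, 10158, 5741 and 460. Control replicate 4 thus had the lowest choroid plexus sum among controls and the highest Serpind1 count (215). Control replicate 2 had the highest sum of both lists and the highest Serpinh1 count of the 8 libraries (1070), and SAP97-cKO replicate 4 had the lowest sum of both lists and the lowest Serpinh1 and Serpind1 counts (525 and 38.4). The part of these cells in the lower Serpinh1 and Serpind1 counts was not tested.

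Serpini1 (ENSMUSG00000027834; chromosome 3, 75557547 to 75643495, plus strand) encodes neuroserpin, a secreted neuronal inhibitor of tissue-type plasminogen activator. Control libraries held 10073, 10164, 8153 and 14110 normalized counts and SAP97-cKO libraries 8581, 11913, 8781 and 9307. The groups overlapped over most of their range, and the highest value belonged to control replicate 4. The log2 fold change was -0.14 (standard error 0.16, 95% interval -0.50 to 0.22, edgeR adjusted p = 0.727). EdgeR's test was the quasi-likelihood F test, and its p-values were adjusted over all genes tested by the Benjamini-Hochberg method, with genes called at a false discovery rate (FDR) under 0.25. Without control replicate 4 the log2 fold change of Serpini1 was 0.03 (edgeR adjusted p = 0.947).

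Serpine2 (ENSMUSG00000026249; chromosome 1, 79794197 to 79861180, minus strand) encodes glia-derived nexin, a secreted inhibitor of thrombin and the plasminogen activators. Normalized counts were 6547, 6377, 6850 and 8573 in controls and 7657, 6917, 6882 and 7234 in SAP97-cKO hippocampi. All 4 SAP97-cKO libraries fell within the control range. The log2 fold change was 0.02 (standard error 0.096, 95% interval -0.20 to 0.23, edgeR adjusted p = 0.953), and it was -0.03 without scaling of the libraries beyond their totals.

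Serpinf1 (ENSMUSG00000000753; chromosome 11, 75409769 to 75422701, minus strand) encodes pigment epithelium-derived factor, a secreted serpin without protease inhibitor activity that acts on neurons and on vessel growth. Control libraries held 524, 556, 493 and 496 normalized counts and SAP97-cKO libraries 487, 415, 501 and 465. SAP97-cKO replicate 3 lay inside the control range and the other 3 lay below it. The log2 fold change was -0.15 (standard error 0.091, 95% interval -0.35 to 0.05, edgeR adjusted p = 0.526).

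The 3 clade B serpins lie in the serpin cluster of chromosome 13, with 152065 bases between Serpinb1a and Serpinb9 and 899961 between Serpinb9 and Serpinb6a. Serpinb9 (ENSMUSG00000045827; 33003250 to 33017957, plus strand) inhibits granzyme B. It had 483, 507, 475 and 542 normalized counts in controls and 427, 394, 434 and 417 in SAP97-cKO hippocampi, so the groups did not overlap. The SAP97-cKO mean was 83.3% of the control mean (log2 fold change -0.26, standard error 0.084), and this did not pass the threshold (edgeR adjusted p = 0.347). The adjusted p was 0.162 in DESeq2, and 0.216 in edgeR without control replicate 1. It was 0.354 in limma-voom, and 0.296 to 0.695 in edgeR with any other library omitted.

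Serpinb6a (ENSMUSG00000060147; 33917918 to 34002794, minus strand), an intracellular inhibitor of trypsin-like proteases, had 1239, 1339, 1198 and 1491 normalized counts in controls and 988, 1245, 1156 and 1131 in SAP97-cKO hippocampi. SAP97-cKO replicate 2 lay inside the control range and the other 3 below it. The log2 fold change was -0.22 (standard error 0.094, edgeR adjusted p = 0.408).

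Serpinb1a (ENSMUSG00000044734; 32842092 to 32851185, minus strand) inhibits neutrophil elastase and related granule proteases. Control libraries held 356, 567, 590 and 607 normalized counts and SAP97-cKO libraries 564, 345, 337 and 270. Control replicate 1 was close to the lower SAP97-cKO libraries, and SAP97-cKO replicate 1 was close to the higher controls. The log2 fold change was -0.48 (standard error 0.23, 95% interval reaching up to 0.03, edgeR adjusted p = 0.441). The adjusted p of Serpinb1a from edgeR was 0.223 without control replicate 1, with a log2 fold change of -0.63. It was 0.211 without SAP97-cKO replicate 1, with a log2 fold change of -0.73. With any other library omitted, the edgeR adjusted p was 0.511 to 0.731.

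The sum of 8 oligodendrocyte markers was 5932, 8820, 8023 and 9506 CPM in control replicates 1 to 4 and 8329, 4922, 5032 and 4602 in SAP97-cKO replicates 1 to 4. As for Serpinb1a, control replicate 1 was the lowest control and SAP97-cKO replicate 1 the highest SAP97-cKO library, by a wide gap in each case. The part of oligodendrocyte RNA in the Serpinb1a counts was not tested. The summed markers of astrocytes (5058 to 5799 CPM in controls, 5324 to 6643 in SAP97-cKO), microglia (369 to 482 and 358 to 459) and endothelial cells (206 to 238 and 159 to 265) overlapped between the groups. So did those of pericytes and smooth muscle (175 to 201 and 130 to 196) and hippocampal neurons (818 to 1153 and 851 to 1282). The sums of neurons in general (10038 to 11144 and 11065 to 12526) overlapped only between 11065 and 11144. Their means were 10435 in controls and 11676 in SAP97-cKO libraries. None of the markers in these lists was at 0.

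**Figure D1:**
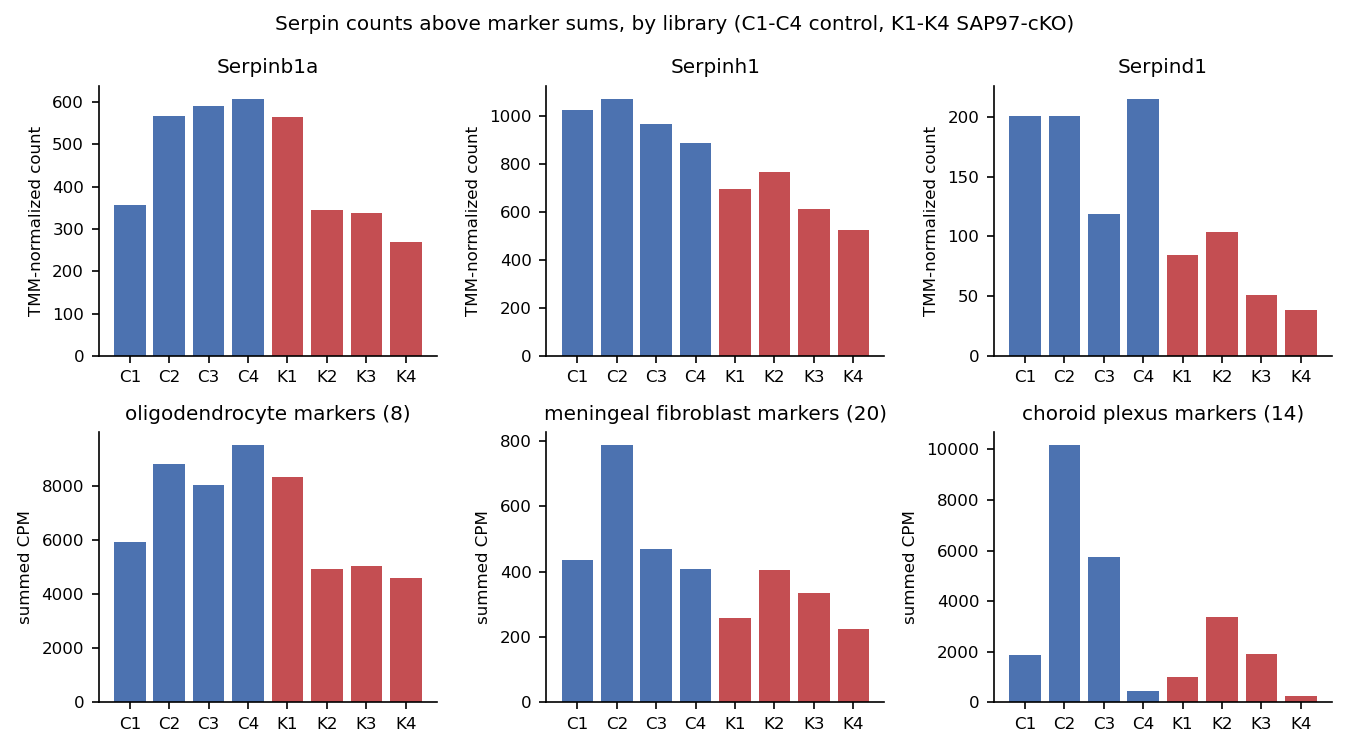
Normalized counts of Serpinb1a, Serpinh1 and Serpind1 (top) and the summed CPM of oligodendrocyte, meningeal fibroblast and choroid plexus markers (bottom) in control libraries C1 to C4 (blue) and SAP97-cKO libraries K1 to K4 (red). The bars of Serpinb1a and of the oligodendrocyte sum are low in C1 (356 and 5932) and high in K1 (564 and 8329). Serpind1 is highest in C4 (215), where the choroid plexus sum is 460. Among SAP97-cKO libraries, Serpind1 and the choroid plexus sum are highest in K2 (104 and 3369) and lowest in K4 (38.4 and 258). The part of these cells in the serpin counts was not tested.

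**Figure D2:**
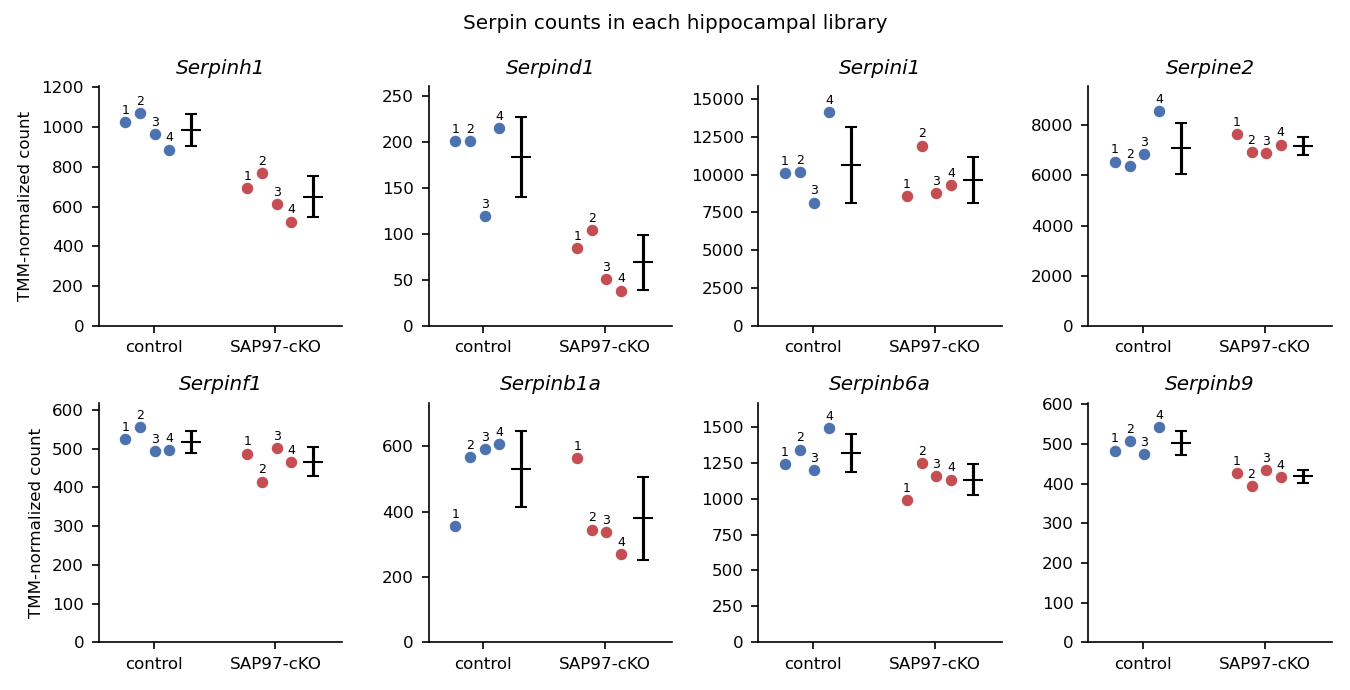
TMM-normalized counts of the 8 serpins in each of 4 control (blue) and 4 SAP97-cKO (red) libraries, numbered by replicate, with the mean and SD of each group as black bars. For Serpinh1, Serpind1 and Serpinb9 every SAP97-cKO point lies below every control point, and for Serpinb1a control 1 (356) and SAP97-cKO 1 (564) stand apart from the rest of their groups.

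All 8 serpins had enough reads to be tested. Of the 6 that were not chosen for their values, edgeR and limma-voom called 0, with 2 (Serpinb6a and Serpinb9) at an unadjusted p under 0.05 in edgeR, where 0.295% of the 16251 genes tested were called (0.283% lower and 0.0123% higher). Both were lower, as were 7.01% of the genes tested at that p, with 4.73% higher. The highest SAP97-cKO library lay below the lowest control in 3 of 8 members (3.47% of the genes tested, with 2.78% separated the other way), and the log2 fold change was below 0 in 7 of 8 (52.8% of the genes tested). Since Serpinh1 and Serpind1 were chosen on this contrast, these counts describe the set and are not evidence about it. Of the 6, DESeq2 called 1, Serpinb9, where it called 6.75% of all genes with an adjusted p. EdgeR called Serpinb1a and Serpinb9 when control replicate 1 was omitted, where 10.2% of all genes were called, and Serpinb1a when SAP97-cKO replicate 1 was omitted, where 4.32% were called.

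**Figure D3:**
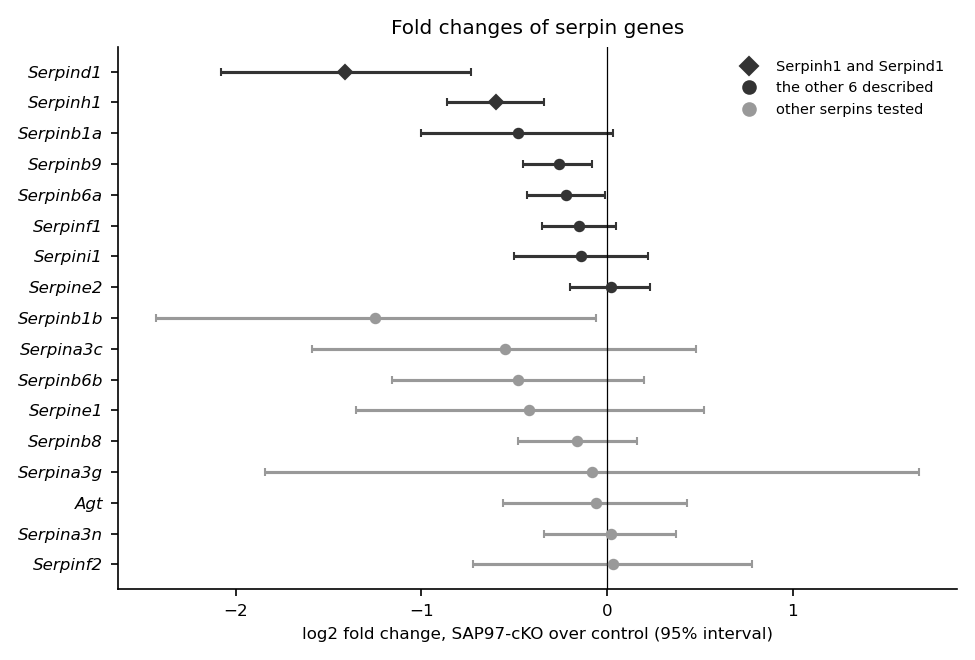
Log2 fold changes (SAP97-cKO over control) with 95% intervals from edgeR for the 8 serpins (black; diamonds mark Serpinh1 and Serpind1, which were chosen for being lower) and for the 9 other serpin genes tested (grey). Serpine2 sits at 0.02 with a narrow interval. The intervals of Serpinh1 and Serpind1 are drawn as a description only, since this contrast chose both genes.

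The other serpins of the table were 27 genes, counting Agt, the serpin that encodes the angiotensin precursor. Of these, 18 had too few reads to be tested (1 to 30 counts over the 8 libraries). Of the 9 tested, edgeR and limma-voom called 0. DESeq2 called 1 (Serpinb1b), where it called 6.75% of all genes with an adjusted p. EdgeR left 1 at an unadjusted p under 0.05. That gene was lower, as were 7.01% of all genes tested at that p, with 4.73% higher. The median log2 fold change of the 9 was -0.16, where that of all genes tested was -0.01. Serpinb1b, a close relative of Serpinb1a, averaged 108 ± 74.7 normalized counts in controls against 45.1 ± 29.5 in SAP97-cKO hippocampi (SD, n = 4 each; log2 fold change -1.25, standard error 0.53, edgeR adjusted p = 0.41). Its control libraries ran from 43.7 to 207. The 3 with the most reads were Serpina3n, an acute-phase serpin of astrocytes (log2 fold change 0.02, standard error 0.16), Agt (-0.06, standard error 0.22) and Serpinb8 (-0.16, standard error 0.14), and none of them passed the threshold.

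Levels of different genes were compared as RPKM (normalized counts per kilobase of exon, scaled to library size), and the members spanned a range of 15.1-fold between control medians. Serpini1 was highest (control median 37.1, range 29.9 to 51.8) and Serpine2 next (21.6, range 20.6 to 27.7). Serpinh1 followed at 10.9 (range 9.71 to 11.7). The control ranges of these 3 did not overlap. Serpinb1a (median 6.71), Serpinb6a (6.37) and Serpinf1 (5.78) could not be separated, as the control ranges of neighbours in this order overlapped. Serpinb9 (3.79, range 3.63 to 4.15) lay below Serpinb6a and Serpinf1 and overlapped the lowest control library of Serpinb1a (4.14), and Serpind1 (2.46, range 1.46 to 2.62) lay below all the others. Serpini1 alone made up 34.8% to 44.7% of the summed level of the 8 genes in control libraries and 37% to 46.7% in SAP97-cKO libraries. In SAP97-cKO hippocampi the 3 highest, Serpinb9 and Serpind1 kept their places. There Serpinh1 (median 7.15, range 5.75 to 8.4) overlapped Serpinb1a (3.96, range 3.13 to 6.55) and Serpinb6a (5.65, range 4.88 to 6.16). Serpinb9 (3.23, range 3.02 to 3.32) overlapped Serpinb1a as well. With the longest annotated transcript as the length, Serpinb6a came before Serpinh1 in controls.

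**Figure D4:**
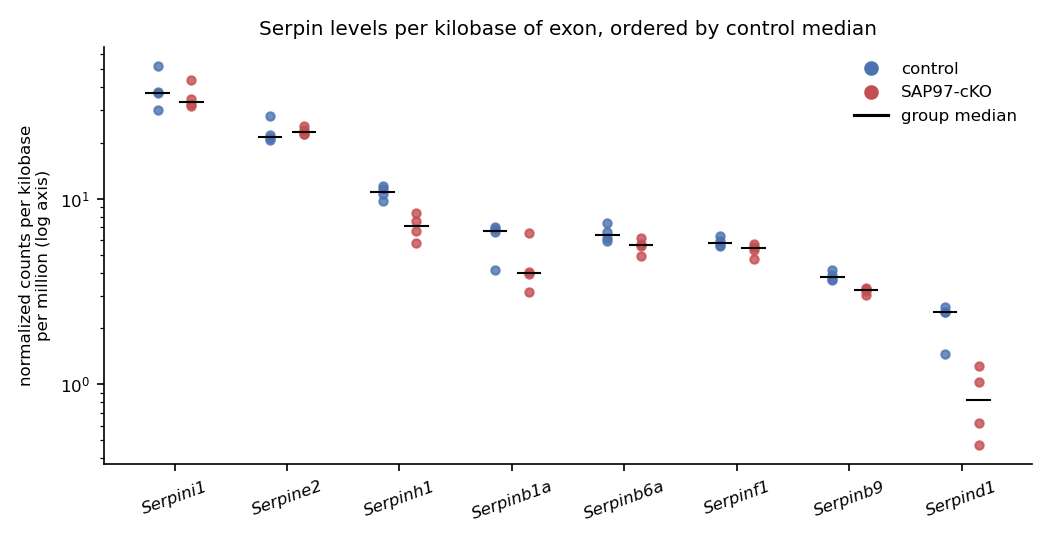
Level of each serpin in RPKM (log axis), 4 control (blue) and 4 SAP97-cKO (red) libraries with group medians as bars, ordered by control median. Serpini1 (control median 37.1) is at the high end and Serpind1 (2.46) at the low end.

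Spread among mice also differed between members. The coefficient of variation over the control libraries was lowest for Serpinf1 (5.66%) and Serpinb9 (5.96%), and 23.7% for Serpind1, 23.5% for Serpini1 and 22.1% for Serpinb1a. Each of these 3 had a single control library away from the other controls (119, 14110 and 356 normalized counts). Over the SAP97-cKO libraries it was 43.3% for Serpind1 and 33.7% for Serpinb1a, against 4.11% for Serpinb9.

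The coding sequences of the members range from 1125 bases (Serpinb9) to 1437 bases (Serpind1). Aligned over their length, Serpinb6a and Serpinb9 shared 67.8% of bases, the highest of the 28 pairs, and every other pair shared 51.4% to 58.9%. Reads can be split between near copies, so each member's transcript was compared with those of all other genes in windows of 50 bases. For Serpinb1a 3.42% of windows occurred in another gene, most often Serpinb1c, for Serpinb6a 2.96%, most often Serpinb6c, and for Serpinb9 0.38%. For Serpini1 it was 1.49%, scattered over 563 genes. Serpind1, Serpine2, Serpinf1 and Serpinh1 had no window shared with another gene.

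To see which genes varied most like each serpin apart from genotype, each genotype's mean was subtracted from log2 CPM and Pearson's r was taken over the 8 libraries with 13612 genes. These values are a description, since the highest r among so many genes over 8 libraries is high for any gene. For Serpinb1a the leading genes were Pgm1, a phosphoglucomutase (1.00), Ugt8a, which makes the myelin lipid galactosylceramide (0.99), and Enpp6, a choline phosphodiesterase of oligodendrocytes (0.98). Pgm1 stayed among the leading 3 in 7 and Ugt8a in 6 of 8 repeats with a library left out, and Enpp6 in 0, where its r was still at least 0.96. The leading genes were Rnf103, Entpd1 and Tmem44 for Serpind1 (0.97 to 0.98), Pitrm1, Man1c1 and Rnf43 for Serpinh1 (0.97 to 0.98), and Syt5, Pdk1 and Vip for Serpini1 (0.98 each). For Serpine2 the genes were Fam134c, Cyp2j9 and Olfml3 (0.98 to 0.99), for Serpinf1 Clec1a, 1110002E22Rik and Bin1 (0.97 each), for Serpinb6a Mrps35, Dnajc30 and Idh1 (0.98 to 0.99), and for Serpinb9 Ahcy, Tmem9b and Pacrgl (0.95 to 0.98). Of the 24 genes, 4 to 10 stayed in place when a library was left out. Among the members themselves, r was highest between Serpinb6a and Serpini1 (0.86) and between Serpinh1 and Serpind1 (0.77).

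RNA of the proteases that the inhibitory members act on was mostly scarce in this tissue, and protease protein was not measured. Of 9 protease genes listed, 8 were in the table and 4 had enough reads to be tested. Thrombin (F2) had 5 reads over the 8 libraries, plasminogen (Plg) 3, granzyme B (Gzmb) 7 and cathepsin G (Ctsg) 3. EdgeR, limma-voom and DESeq2 called 0 of the 4, with 2 at an unadjusted p under 0.05 in edgeR. Both were lower, as were 7.01% of all genes tested at that p, with 4.73% higher. Tissue-type plasminogen activator (Plat) averaged 1696 ± 203 normalized counts in controls against 1440 ± 98 in SAP97-cKO hippocampi (SD, n = 4 each; log2 fold change -0.24, standard error 0.094, edgeR adjusted p = 0.39). Urokinase (Plau) had 98.2 ± 34.8 and 65.8 ± 8.63 (SD, n = 4 each; log2 fold change -0.58, standard error 0.25, edgeR adjusted p = 0.421). The kallikrein Klk8, a hippocampal protease of synaptic plasticity, was at 0.06 (standard error 0.13).

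Of 22 receptors and cofactors, 20 were tested and edgeR and limma-voom called 0, with 5 in each at an unadjusted p under 0.05, while DESeq2 called 4 (Thbd, Sdc1, Vtn and Pnpla2) and 1033 genes in all. In edgeR, 7.01% of all genes tested were lower and 4.73% higher at that p. The list median was -0.12 on the log2 scale. In the 4 genes that DESeq2 called, every SAP97-cKO value was under the lowest control, as in 3.47% of all genes tested. Thrombomodulin (Thbd), which turns thrombin towards activation of protein C, averaged 943 ± 209 normalized counts in controls against 586 ± 91.6 in SAP97-cKO hippocampi (SD, n = 4 each; log2 fold change -0.69, standard error 0.16, edgeR adjusted p = 0.293). Vitronectin (Vtn), which stabilizes plasminogen activator inhibitor, had 2077 ± 161 and 1372 ± 310 (SD, n = 4 each; log2 fold change -0.60, standard error 0.15, edgeR adjusted p = 0.316). The cell-surface proteoglycan syndecan Sdc1 was at -0.95 (standard error 0.26), the lipase and Serpinf1 receptor Pnpla2 at -0.34 (standard error 0.092) and Sdc4 at -0.28 (standard error 0.11). The clearance receptor Lrp1, which takes up serpin and protease complexes, was at 0.28 (standard error 0.16, edgeR adjusted p = 0.508) and the laminin receptor Rpsa at -0.06 (standard error 0.13).

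Serpinh1 works on collagens. Of 10 collagen genes, all tested, edgeR called 2 lower and 0 higher, against 0.283% and 0.0123% of all genes tested. The list median was -0.37. Col1a2 fell from 1000 ± 220 to 495 ± 104 normalized counts (SD, n = 4 each; log2 fold change -1.01, standard error 0.18, edgeR adjusted p = 0.19), and Col3a1, of fibrillar collagen as well, fell from 223 ± 45.5 to 95.9 ± 31 (log2 fold change -1.22, standard error 0.23, edgeR adjusted p = 0.201). Col1a1 was at -0.54 (standard error 0.12, edgeR adjusted p = 0.283). Col5a1 and Col5a2, also fibrillar, were at -0.03 (standard error 0.28) and -0.35 (standard error 0.20). The basement membrane collagens, which had the most reads, were at -0.02 (Col4a1, standard error 0.15) and 0.17 (Col4a2, standard error 0.17). Of the fibrillar genes, Col1a1, Col1a2 and Col3a1 are also on the meningeal fibroblast list, whose sums by group are given above. Col1a2 and Col3a1 were among the genes that the authors reported as differing in these libraries. The collagen list is thus not independent of this contrast.

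Of 14 genes for collagen folding and modification in the ER, edgeR and limma-voom called 0 and DESeq2 called 3 (P4ha1, Plod1 and Plod2), with 7 at an unadjusted p under 0.05 in edgeR, all lower. Over all genes tested, 7.01% were lower and 4.73% higher at that p in edgeR, and DESeq2 called 6.75% of genes with an adjusted p. The median log2 fold change of the folding list was -0.17. The prolyl hydroxylase subunit P4ha1 averaged 2468 ± 227 normalized counts in controls against 2023 ± 55.8 in SAP97-cKO hippocampi (SD, n = 4 each; log2 fold change -0.29, standard error 0.073, edgeR adjusted p = 0.316). The lysyl hydroxylases Plod2 and Plod1 were at -0.52 (standard error 0.15) and -0.30 (standard error 0.11), P4ha2 at -0.27 (standard error 0.12), the prolyl isomerase Fkbp14 at -0.18 (standard error 0.078) and the disulfide isomerase P4hb at -0.17 (standard error 0.067). Sparc, a collagen-binding matrix protein, was at -0.35 (standard error 0.16).

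Serpinh1 is also a heat shock gene. Of 9 heat shock genes tested, edgeR called 1, Hspb1, a small heat shock protein that fell from 238 ± 55.7 to 112 ± 22.8 normalized counts (SD, n = 4 each; log2 fold change -1.09, standard error 0.20, edgeR adjusted p = 0.195). Over all genes tested, edgeR called 0.283% lower and 0.0123% higher. Hspb1 was itself among the genes that the authors reported as differing in these libraries. The heat shock list is thus not independent of this contrast. The other 8 heat shock genes listed were between -0.25 and 0.04. The list held neither Cryab nor Hspb8, small heat shock genes that the authors reported as differing in these libraries, with the same sign as Dlg1. The chaperones with the most reads, Hsp90aa1 and Hsph1, were at -0.03 (standard error 0.087) and -0.04 (standard error 0.098), and Hsf1, the transcription factor of the heat shock response, was at 0.04 (standard error 0.08). Omitting control replicate 2, SAP97-cKO replicate 3 or SAP97-cKO replicate 4 ended the calls of Col1a2, Col3a1 and Hspb1. No gene of any kind was called in those fits. In the same order, 10, 8 and 6 genes of the collagen, folding and heat shock lists had an edgeR unadjusted p under 0.05. Among all genes tested, 1403, 1259 and 1167 did.

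**Figure D5:**
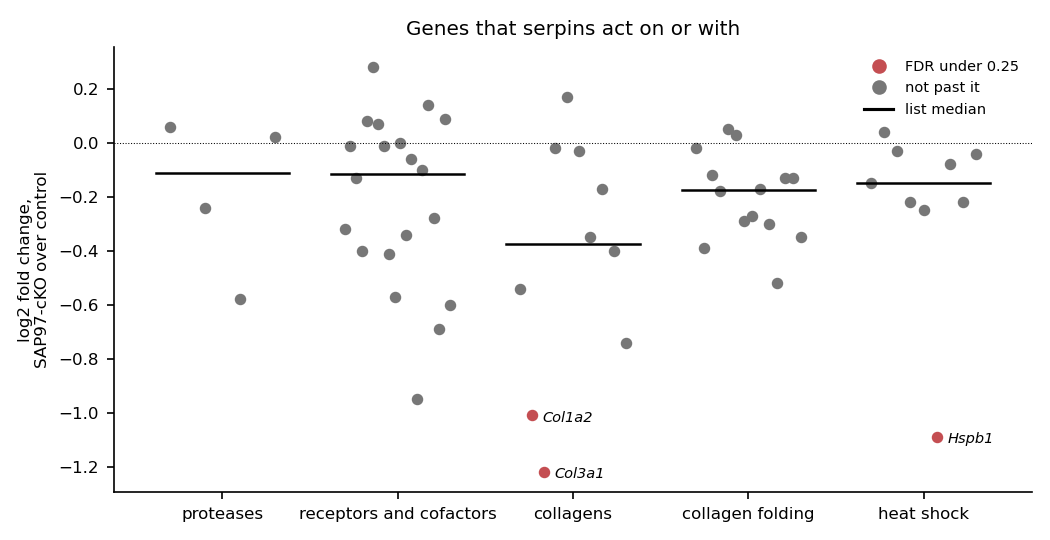
Log2 fold changes (SAP97-cKO over control) of the genes tested in 5 lists, each point a gene, red where the FDR was under 0.25, with the list median as a bar. Col1a2 (-1.01), Col3a1 (-1.22) and Hspb1 (-1.09) are the called genes, and the medians run from -0.37 (collagens) to -0.11 (proteases).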

How the data were processed

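RNA of 4 control and 4 SAP97-cKO hippocampi was sequenced. Reads were mapped by the authors with STAR 2.5.3a (genome build GRCm38.p5), who then used PORT, which removed ribosomal and mitochondrial reads, brought all libraries to a common depth by resampling, and deposited whole-number counts per Ensembl gene. The sources used here do not state whether counting used strand. The deposited fold changes, p-values and q-values of their own comparison were not used. The tissue came from separate mice, so the spread is between animals.

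Genes with enough reads (filterByExpr, minimum count 10, minimum total 15) were kept (16251 of 25834, holding 99.9% of counts), scaled by TMM (0.964 to 1.03) and compared with edgeR 4.0.16 (quasi-likelihood test, R 4.3.3) at an FDR under 0.25, with limma 3.58.1 (voom) and DESeq2 1.42.0 as alternatives. Standard errors are the log2 fold change divided by the square root of F. The fit was tested on simulated data. No pair of libraries was alike enough to be a repeat (9.68 to 72.6 chi-square units per gene). Gene lengths and positions are from GENCODE M21 (25696 identifiers matched) and promoters from RefSeq. Sequences were aligned with Biopython 1.88 and plots drawn with matplotlib 3.10.9.

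The members and lists were chosen with earlier results of these data known. Named genes are the members, Dlg1, the 3 genes most alike to each member, and of each list those called or at an unadjusted p under 0.05 (at most 6) and those with the most reads. Reads of F2, Plg, Gzmb and Ctsg, Hsf1, and Serpina3g were added after their values had been seen.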

Additional observations from a re-analysis of the deposited data

Results flagged for a closer look

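In 20 groups of 4 libraries (the 8 serpins and the choroid plexus and meningeal fibroblast marker sums, by genotype), 3 held a library far from the other 3, where chance gives about 1 in 20 groups. Serpinb1a had 356 normalized counts in control replicate 1, with the next control at 567. Serpind1 had 119 in control replicate 3, with the next control at 201. The meningeal fibroblast marker sum was 787 CPM in control replicate 2, with the next control at 470.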

How the results depend on the processing

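The number of genes called at an FDR under 0.25 was 48, and it was 1033 in DESeq2 (588 lower, 445 higher), 104 without a filter, 95 without scaling and 256 with the replicate number as a block. It was 0 at an FDR under 0.05 in edgeR and limma-voom, where 1907 and 1872 genes had an unadjusted p under 0.05, and 156 in DESeq2. Leaving out a library gave 0 to 1675, with 0 without control replicate 2, SAP97-cKO replicate 3 or SAP97-cKO replicate 4 (1403, 1259 and 1167 genes at an unadjusted p under 0.05). The number of serpin members called, 1, was 3 in DESeq2, 2 in limma-voom, without a filter, without scaling and with the replicate block, 0 at an FDR under 0.05, and 0 to 4 with a library left out. These counts include Serpinh1 and Serpind1, which were chosen on this contrast, and are a description. Other serpins called went from 0 to 1 in DESeq2. Protease, receptor and cofactor genes went from 0 to 4 in DESeq2, 2 without a filter, 1 without scaling, 3 with the block, and 0 to 4 with a library left out. Collagen, folding and heat shock genes went from 3 to 7 in DESeq2, 5 without scaling, 0 at an FDR under 0.05, and 0 to 7 with a library left out. The cause of these shifts was not tested. In the order of levels, 5 of 8 places held with the longest transcript and 5 in SAP97-cKO libraries. Of the 24 genes most alike, 16 held on the linear scale and 4 to 10 with a library left out. Serpine2 went from 0.02 to -0.03 without scaling and ran from -0.03 to 0.12 with a library left out, and Serpini1 from -0.26 to 0.03. The fold changes of Serpinf1, Serpinb1a, Serpinb6a and Serpinb9 stayed below 0 in all settings tried. So did those of Serpinh1 and Serpind1, which were chosen for being lower.

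Replicate numbers are shared by the groups, and the deviations of same-numbered libraries correlated at -0.062, 0.201, 0.0898 and 0.259. Nothing says that a number marks a litter or a day, so the samples share only a number.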

Other observations

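Serpina3g, a mouse serpin of the chromosome 12 cluster, varied more between mice than between genotypes. It had 55, 6.98, 29.1 and 76.7 normalized counts in control replicates 1 to 4 and 1.02, 29.9, 60.8 and 67.5 in SAP97-cKO replicates 1 to 4. Its neighbour in that family, Serpina3n, ran from 1477 (SAP97-cKO replicate 2) to 2515 (SAP97-cKO replicate 4), and SAP97-cKO replicate 1, with 1.02 for Serpina3g, had 2337. Serpinb1b had 57, 123, 207 and 43.7 in controls and 27.5, 88.6, 38.5 and 26 in SAP97-cKO libraries. In each genotype its lowest library was replicate 4, which also had the lowest choroid plexus marker sum (460 and 258 CPM). The part of choroid plexus RNA in the Serpinb1b counts was not tested.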
